A study of Mus musculus with 6 samples.

Results

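Pax2, Pax8, Lhx1, Gata3, Ret, Calb1, Cdh16 and Lrp2 are 8 genes known for their expression in the ducts and tubules of the mesonephros, the embryonic kidney that lies against the gonad. They were found by gene symbol in RNA-seq counts of mouse testes at E12.5 (embryonic day), where each matched 1 of the 24470 genes listed. Of the 6 samples, 3 carried Ppp1r3c f/f (control) and 3 carried the same floxed alleles with Sf1-Cre (cKO, conditional knockout). The Cre is driven by Nr5a1 (Sf1) sequences, which are active in somatic cells of the gonad, and Ppp1r3c targets a phosphatase to glycogen and favours its synthesis. Gonadal pairs of more than 1 embryo were pooled into each sample. For these gonads, the sources used here do not give how the mesonephros was removed.

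The nephric (Wolffian) duct grows along the body and induces tubules in the mesenchyme beside it. Pax2, Pax8, Lhx1 and Gata3 encode transcription factors of the duct, and Ret encodes the receptor through which Gdnf guides duct outgrowth. In males the duct becomes the epididymis and vas deferens, and a cell population at the border of gonad and mesonephros, known to express Pax8, contributes to the rete testis. Several of the 8 genes are not exclusive to the mesonephros, and Lhx1 and Ret are also known in germline stem cells.

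Library totals lay between 16139487 and 44145158 counts, with control replicate 1 the shallowest. The targeted gene Ppp1r3c was at 24.4, 22.1 and 22.9 CPM (counts scaled to the same library size after TMM) in control replicates 1 to 3 and at 4.71, 5.37 and 5.96 CPM in the cKO replicates. Its log2 fold change, always cKO against control, was -2.11 (SE 0.111), with an adjusted p of 0.000126 in edgeR's quasi-likelihood test. The testis markers of Sertoli cells were present in every sample, their 8 genes summing to between 1675 and 2121 CPM in the controls and between 1581 and 2139 CPM in the cKO samples. All samples are labelled testis, but the library of cKO replicate 3 stood apart, and the values that moved most without it are given both ways. It held 12534 counts of Xist, the RNA that coats the inactive X chromosome of XX cells, against 6 to 41 counts in the other samples. The same library held 50.9 CPM of Fst, a pre-granulosa gene, against at most 2.02 CPM elsewhere, and its 8 pre-granulosa genes summed to 355 CPM against 134 to 157 CPM in the controls.

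Pax2 and Pax8 are paralogs, and their coding sequences are close enough that short fragments could be shared. The stretch shown here, 90 coding bases in the region that encodes the paired (DNA-binding) domain, is one of close likeness between them, and capitals mark the 8 bases that differ. It is from GENCODE M21 on GRCm38 (mm10), where it spans chr19:44761009-44761742 on the plus strand for Pax2 and chr2:24443083-24444600 on the minus strand for Pax8, with an intron inside each span.
Pax2: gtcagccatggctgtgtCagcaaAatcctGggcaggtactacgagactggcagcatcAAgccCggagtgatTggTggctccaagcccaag
Pax8: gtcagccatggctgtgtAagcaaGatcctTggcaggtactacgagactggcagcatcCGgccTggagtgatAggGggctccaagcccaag
The longest run of coding bases that the 2 genes share exactly was 27. With a transcript of each gene aligned without gaps at that run, every window of 100 coding bases differed at 10 or more positions. Other alignments were not compared. The paper describes paired-end reads longer than the 100 bases of those windows. For Gata3, Lhx1, Calb1, Cdh16 and Lrp2, the longest run shared with the paralog compared was between 12 and 20 bases.

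Of the 8 genes, 7 passed the filter on low counts and Cdh16 did not. None of the 7 was called at an adjusted p under 0.05 by edgeR, DESeq2 or limma-voom, where edgeR called 0.0385% and limma-voom 0.0449% of the 15577 genes they tested, and DESeq2 called 0.779% of the 14243 genes to which it gave an adjusted p. At an unadjusted p under 0.05, edgeR gave 3 members, all higher in the cKO samples, against 11.4% of all genes (5.56% higher, 5.8% lower). DESeq2 gave 2 members, against 8.25% of the 19991 genes to which it gave a p, and limma-voom gave 5, of which Pax2, Pax8, Gata3 and Calb1 were higher (5.68% of all genes) and Lhx1 was lower (6.8%). Without cKO replicate 3, edgeR gave 2 members, Pax8 and Calb1, against 7.83%. The groups did not overlap for Pax2, Pax8 and Calb1, each higher in the cKO samples, and 8.42% of all tested genes were apart in that direction (7.17% in the other). The exact two-sided permutation test gave 0.1 for each of these 3, the smallest p that 3 samples against 3 allow. The median log2 fold change of the 7 members was 0.51, beside -0.0034 over all tested genes, and it was 0.32 without cKO replicate 3, 0.31 without control replicate 2 and 0.27 over all 8 genes fitted without a filter. In bulk samples, fewer cells of a type and less RNA per cell cannot be told apart.

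**Figure D1:**
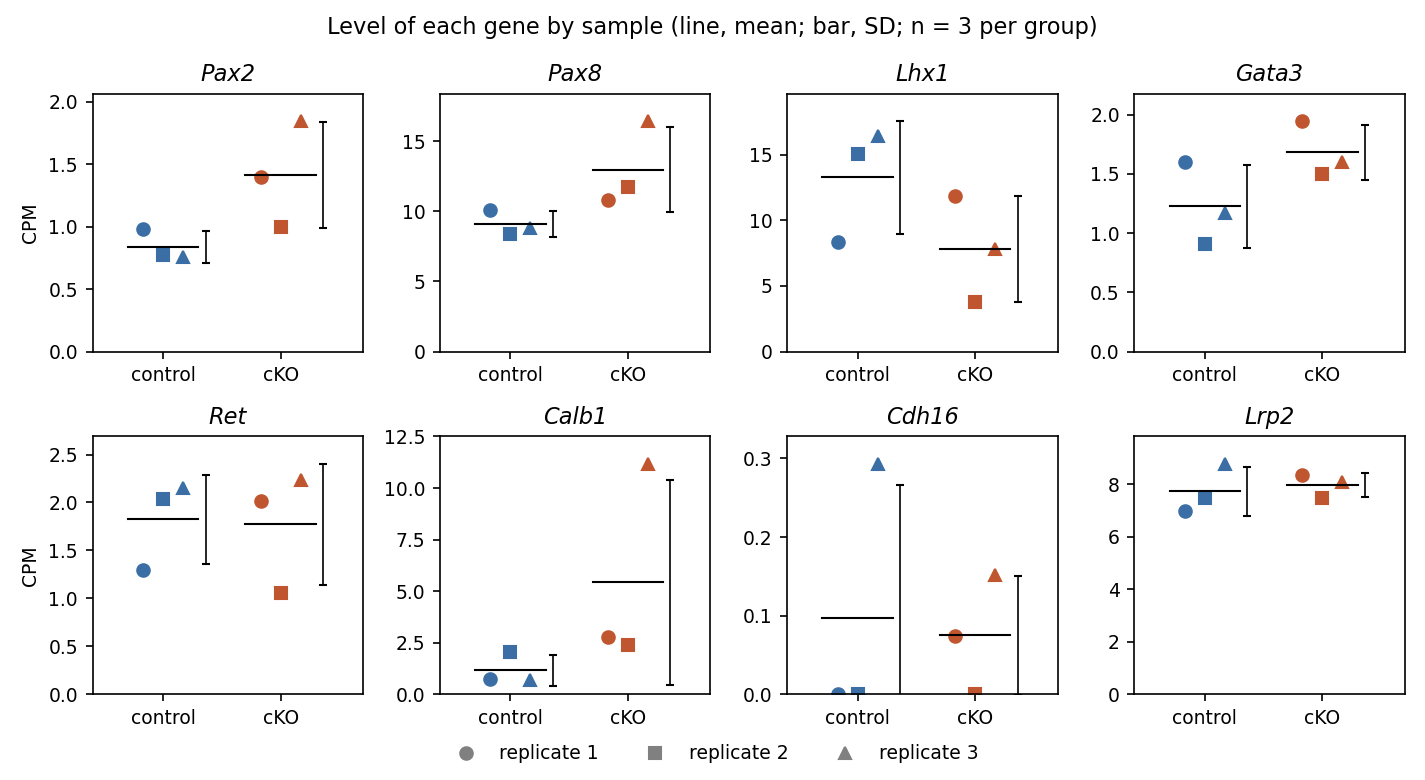
Level of each of the 8 genes in every sample, in CPM, with points for the samples and group means with SD. Pax2, Pax8 and Calb1 have all 3 cKO samples above all 3 controls, while Lhx1, Gata3, Ret and Lrp2 overlap and Cdh16 is at or near 0.

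Pax8 (chr2:24420551-24475599, minus strand), a paired-box factor of the duct and of kidney and thyroid, was at 10.1, 8.35 and 8.83 CPM in the controls and at 10.8, 11.7 and 16.4 CPM in the cKO samples. The lowest cKO sample exceeded the highest control by 0.701 CPM. The 95% Poisson interval of that control, replicate 1 with 164 counts, ran from 8.61 to 11.8 CPM and covered cKO replicates 1 and 2. The group means were 9.09 ± 0.901 and 13.0 ± 3.02 CPM (SD, n = 3 each), and the log2 fold change was 0.52 (SE 0.165, 95% interval 0.15 to 0.89) with an edgeR adjusted p of 0.377. Without cKO replicate 3, which was the highest sample, the log2 fold change was 0.32. An antisense gene, Gm13415, overlaps Pax8, and the counting was strand-specific.

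Pax2 (chr19:44757394-44837871, plus strand) is needed with Pax8 to form the nephric duct, and was much the scarcer of the pair. It was at 0.985, 0.770 and 0.756 CPM in the controls and at 1.40, 1.001 and 1.85 CPM in the cKO samples. The groups were apart by only 0.016 CPM, less than the 0.0278 CPM that 1 count was worth in cKO replicate 2. The 95% Poisson interval of control replicate 1, which held 16 counts, ran from 0.563 to 1.60 CPM. The log2 fold change was 0.78 (SE 0.298, 95% interval 0.12 to 1.45) with an edgeR adjusted p of 0.390, and 0.55 without cKO replicate 3. The antisense genes 1700039E22Rik and Gm20395 overlap Pax2, as does Mir6405 on the same strand, which strand-specific counting does not separate.

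Lhx1 (chr11:84519379-84525534, minus strand), a LIM-homeodomain factor required for the duct to extend, had the lowest log2 fold change of the members. It was at 8.37, 15.0 and 16.4 CPM in the controls and at 11.9, 3.81 and 7.84 CPM in the cKO samples. The groups overlapped, since control replicate 1 lay below cKO replicate 1. The means were 13.3 ± 4.29 and 7.84 ± 4.03 CPM (SD, n = 3 each), and the log2 fold change was -0.78 (SE 0.361, 95% interval -1.59 to 0.03) with an edgeR adjusted p of 0.450. It was -0.78 without cKO replicate 3 as well, -0.45 with cKO replicate 2 left out and -1.22 with cKO replicate 1 left out.

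The order of the 6 samples by Lhx1 was that of the germ cell gene Dazl and of the epithelial genes Epcam and Cdh1, which germ cells also express. The germ cell gene Ddx4 had another order, with cKO replicate 3 above control replicate 1. These 4 genes were chosen after their values were seen. Dazl was at 173, 257 and 304 CPM in the controls and at 195, 76.4 and 127 CPM in the cKO samples. The summed level of 10 germ cell genes was between 427 and 693 CPM in the controls and between 196 and 437 CPM in the cKO samples. None of the 10 was called by edgeR, and 7 were lower at an unadjusted p under 0.05, as were 5.8% of all tested genes. Of all genes to which it gave an adjusted p, DESeq2 called 0.779%. Among the 10 it called Dnd1 (log2 fold change -0.70, adjusted p 0.0429) and Mael (-0.95, adjusted p 0.0135), both known in germ cells. Without cKO replicate 3, with 1 sample fewer, DESeq2 called neither. As a share of the control mean, cKO replicate 2 held 28.7% for Lhx1 and 32.9% for the summed germ cell genes. The part of germ cells in the Lhx1 values was not tested.

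**Figure D2:**
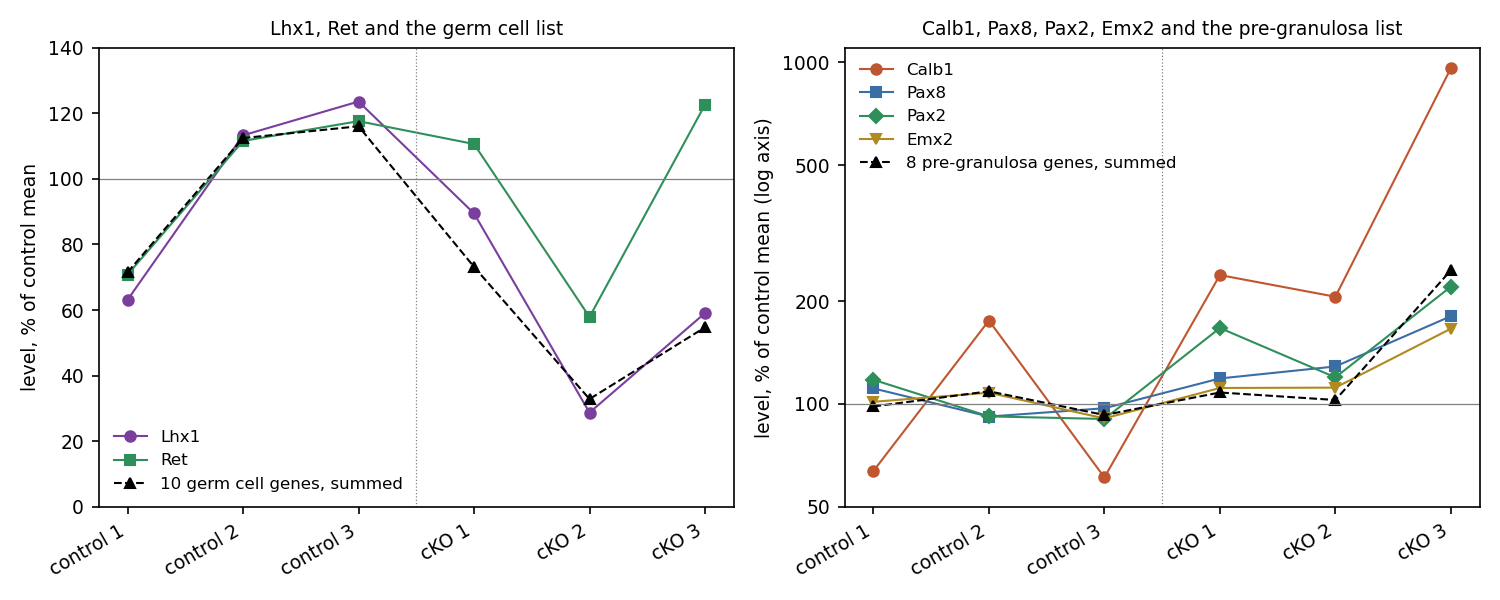
Level in each sample as a percent of the control mean, for Lhx1 and Ret beside 10 summed germ cell genes (left) and for Calb1, Pax8, Pax2 and Emx2 beside 8 summed pre-granulosa genes (right, log axis). Lhx1 and the germ cell genes are both lowest in cKO replicate 2, at 28.7% and 32.9%, and the genes of the right panel are all highest in cKO replicate 3, where Calb1 is at 961% and the pre-granulosa genes are at 246%.

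Gata3 (chr2:9857078-9878600, minus strand), a zinc-finger factor that acts upstream of Ret in the duct, was at 1.60, 0.905 and 1.17 CPM in the controls and at 1.95, 1.502 and 1.60 CPM in the cKO samples. Control replicate 1 lay between cKO replicates 2 and 3. The log2 fold change was 0.51 (SE 0.267, 95% interval -0.09 to 1.11) with an edgeR adjusted p of 0.492, and 0.31 without control replicate 2. The antisense gene Gm13256 overlaps it.

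Ret (chr6:118151748-118197744, minus strand), a receptor tyrosine kinase, was at 1.29, 2.04 and 2.15 CPM in the controls and at 2.02, 1.06 and 2.24 CPM in the cKO samples. The groups overlapped over most of their range. The log2 fold change was -0.08 (SE 0.313, 95% interval -0.78 to 0.62) with an edgeR adjusted p of 0.942, and its sign turned when control replicate 3 (0.037) or cKO replicate 2 (0.18) was left out. With cKO replicate 3 left out it was -0.28. Among 7 genes of its signalling, 4 were higher and 3 lower and none was called. Gfra1, the co-receptor that binds Gdnf, had means of 11.0 ± 1.40 and 14.0 ± 1.33 CPM (SD, n = 3 each) in groups that did not overlap (log2 fold change 0.35, SE 0.124, edgeR adjusted p 0.381). Etv5, a target of the pathway, had the highest level of the list, with means of 164 and 152 CPM.

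Calb1 (chr4:15881264-15906709, plus strand), which encodes the calcium-binding protein calbindin, varied most of the 7 tested members. It was at 0.739, 2.04 and 0.708 CPM in the controls and at 2.77, 2.39 and 11.2 CPM in the cKO samples, a span of 15.8 times from lowest to highest. One library, cKO replicate 3, set the size of the difference. The log2 fold change was 2.14 (SE 0.640, 95% interval 0.70 to 3.58) with an edgeR adjusted p of 0.377, and 1.08 without that library. Pax2, Pax8 and Ret were also highest in cKO replicate 3, as were 19.0% of all tested genes. Whether the state of that library that shows in Xist and Fst bears on these values was not tested.

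Lrp2 (chr2:69424335-69586067, minus strand) encodes megalin, an endocytic receptor of tubule epithelium, and was the most even of the tested members. It was at 6.96, 7.47 and 8.76 CPM in the controls and at 8.35, 7.48 and 8.08 CPM in the cKO samples. The means were 7.73 ± 0.929 and 7.97 ± 0.446 CPM (SD, n = 3 each), and the log2 fold change was 0.04 (SE 0.130, 95% interval -0.25 to 0.33). Its partner receptor Cubn was at 2.29 to 2.96 CPM in the controls and at 2.24 to 3.06 CPM in the cKO samples.

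Cdh16 (chr8:104601915-104624396, minus strand), the kidney-specific cadherin of duct and tubule epithelium, had 20 counts over all 6 libraries. It had 12 counts in control replicate 3, 3 in cKO replicate 1, 5 in cKO replicate 3 and 0 in the other samples. A count of 0 allows up to 3 counts, or 0.185 CPM in control replicate 1, 0.0679 CPM in control replicate 2 and 0.0834 CPM in cKO replicate 2, for counting error only. Fitted without a filter, its log2 fold change was -0.59 (SE 1.24) with an edgeR adjusted p of 0.896.

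**Figure D3:**
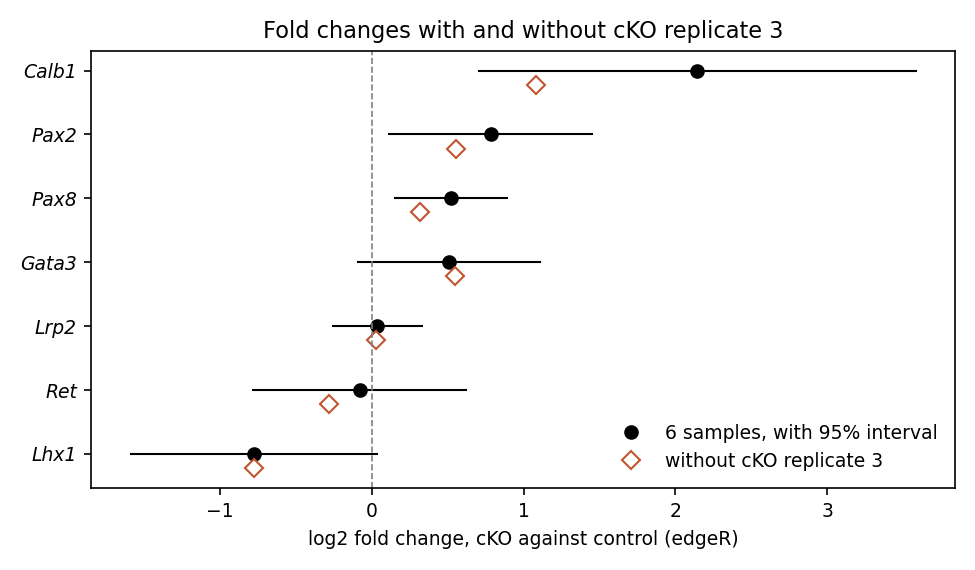
Log2 fold change of each tested member, cKO against control, with its 95% interval, and the value without cKO replicate 3. The intervals of Pax2, Pax8 and Calb1 lie above 0, and the value of Calb1 moves from 2.14 to 1.08 without that library. The intervals are from all 6 samples and are not adjusted for the number of genes tested, and no member was called.

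Per kilobase of exon, Lhx1 had the highest control level, 3.26 ± 1.05 CPM per kb (SD, n = 3), followed by Pax8 at 1.5004 ± 0.149. Lrp2 (0.463 ± 0.0556), Gata3 (0.308 ± 0.0882), Ret (0.270 ± 0.0687), Calb1 (0.240 ± 0.157) and Pax2 (0.155 ± 0.0237) came next, and Cdh16 was last. Neighbours in this order from Gata3 to Pax2 did not differ beyond their spread. In the cKO samples Pax8 was at 2.14 ± 0.499 and Lhx1 at 1.92 ± 0.990 CPM per kb, which overlap. Against a median of 25.3 CPM over all tested genes, the members were expressed at low levels.

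Of 21 other duct and tubule genes, 17 passed the filter on low counts, and their levels spanned a wide range. At the low end, Sim1 had 1 count in all, Hnf4a had 12 and Wnt9b had 28 over the 6 libraries, genes named after their values were seen. Emx2, which is also known in the coelomic epithelium of the gonad, was at 87.5, 93.1 and 78.3 CPM in the controls and at 96.1, 96.3 and 143 CPM in the cKO samples.

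Among 12 other duct genes, 9 were tested, 3 higher and 6 lower, with a median log2 fold change of -0.18 and none called. For Emx2 the log2 fold change was 0.37 (SE 0.146, edgeR adjusted p 0.402), and 0.16 without cKO replicate 3. Pkhd1, the fibrocystin gene of duct and tubule cilia, held only 88 counts in all, and 3 counts were worth 0.0748 CPM in cKO replicate 1. Pkhd1 was at 0.493, 0.837 and 0.586 CPM in the controls and at 0.0997, 0.278 and 0.151 CPM in the cKO samples, which do not overlap. Its log2 fold change was -1.89 (SE 0.450, edgeR adjusted p 0.377), opposite in sign to Pax2 and Pax8. Of 9 other tubule genes, 8 were tested, 5 higher and 3 lower, with a median of 0.07 (0.044 without cKO replicate 3) and none called. Dab2, an endocytic adaptor, was highest with means of 130 and 136 CPM, and Cdh6 had the lowest p (log2 fold change 0.25, edgeR adjusted p 0.475, and 0.12 without cKO replicate 3).

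**Figure D4:**
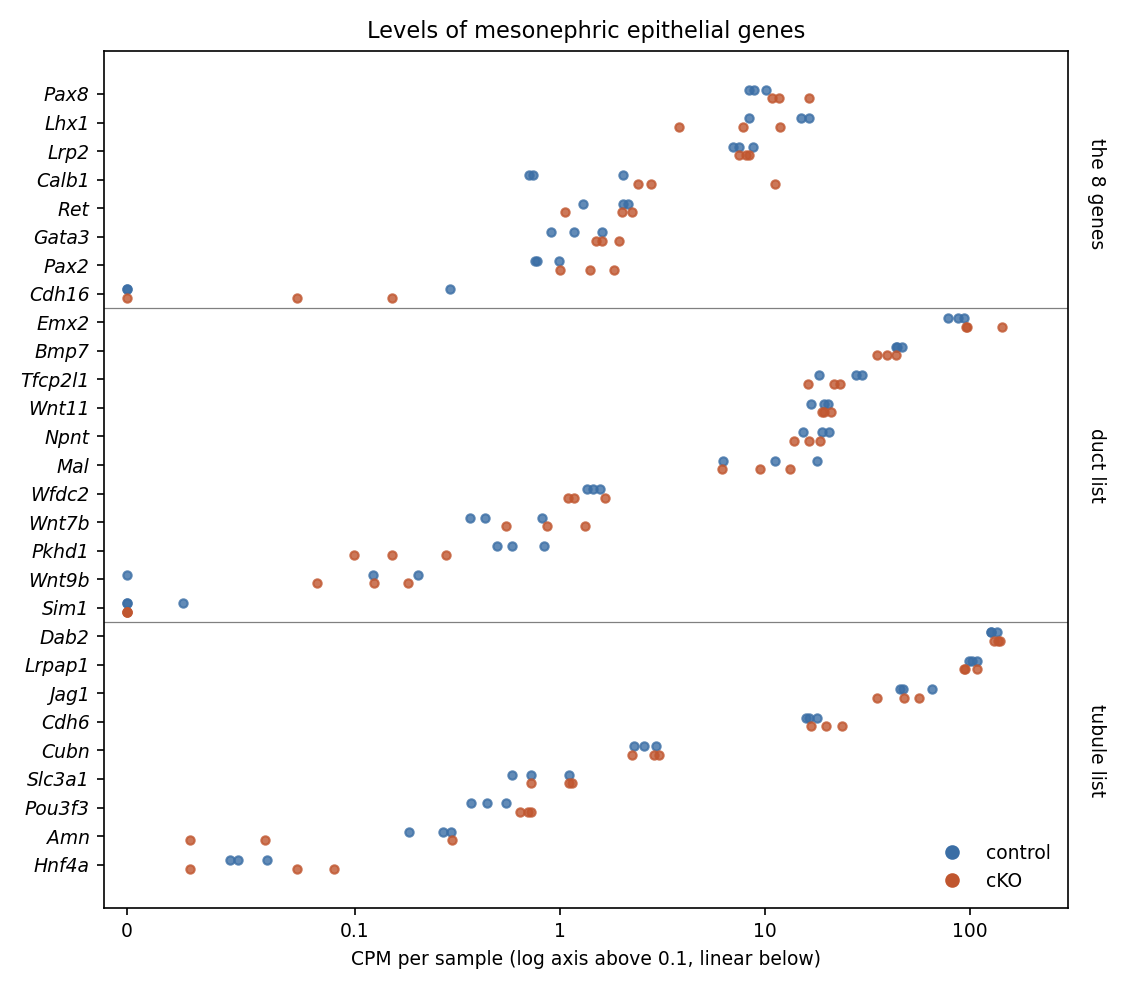
Level of the 8 genes and of other duct and tubule genes in every sample, in CPM on an axis that is logarithmic above 0.1 and linear below. Sim1, Hnf4a, Wnt9b and Cdh16 lie at or near 0, while Emx2 and Dab2 lie near 100 CPM.

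Of 10 genes of nephrogenic mesenchyme, 7 were higher and 3 lower, with a median of 0.055 (0.13 without cKO replicate 3). None was called by edgeR. At an unadjusted p under 0.05 it gave 2 higher, against 5.56% of all tested genes, and 2 lower, against 5.8%. DESeq2 called 1, against 0.779% of all genes to which it gave an adjusted p. It did not call that gene without cKO replicate 3. Eya1, a transcriptional cofactor, had the highest level of the list, with means of 10.3 and 10.6 CPM. Of 15 sympathetic, chromaffin and glial genes, 10 were tested, 5 in each direction, with Chga at a log2 fold change of -0.37 (-0.15 without cKO replicate 3) and Sox10, of glial precursors, at means of 31.8 and 33.4 CPM.

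Markers of other cell types gave no edgeR call either. Values in parentheses are those without cKO replicate 3. The median log2 fold change was 0.79 (0.30) for 8 pre-granulosa genes, -0.31 (-0.045) for 5 fetal Leydig genes, -0.090 (-0.0085) for 8 Sertoli genes and -0.81 (-0.86) for the germ cell genes. It was -0.29 (-0.37) for 13 epithelial genes, -0.26 (-0.11) for 4 tested adrenal cortex genes and 0.032 (-0.060) for 3 tested mesothelial genes. It was -0.0055 (0.0084) for 8 endothelial genes, -0.050 (-0.078) for 7 macrophage genes and 0.015 (-0.0097) for 6 erythroid genes.

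Across the 6 samples, the genes whose log2 CPM most resembled the mean standardized profile of the 7 tested members were Enpp2 (Pearson r 0.981), Cct6b (0.978), Wdr59 (0.973), Ern1 (0.972) and ND5 (0.972). With 6 samples 101 genes lay above an r of 0.9. The members' own r, each against a mean that includes that member, ran from 0.84 for Pax2 to 0.14 for Lhx1. The 7 tested members thus did not share 1 profile. The summed CPM of all 8 members was 30.04, 36.6 and 39.1 in the controls and 39.2, 28.9 and 49.3 in the cKO samples. The log2 ratio of the means was 0.15. That ratio was 0.51 without Lhx1, 0.0029 without Pax8, -0.015 without Calb1 and -0.048 without cKO replicate 3. Lhx1 made up 41.1% of that sum in control replicate 2 and 13.2% in cKO replicate 2, and Calb1 made up 22.6% in cKO replicate 3.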

How the data were processed

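The authors made stranded mRNA libraries, aligned the reads to mm10 with STAR 2.5 and counted them per gene with featureCounts (Subread 1.5.0-p1), per the labels, and the deposited values are raw counts. Groups and replicate numbers came from the sample titles. Nothing says which embryos a pool held, so p-values measure the spread between these samples. Counts were tested with edgeR 4.0.16 in R 4.3.3 (filterByExpr with a minimum count of 10, TMM, quasi-likelihood F-test, Benjamini-Hochberg adjustment over 15577 genes, threshold 0.05). DESeq2 1.42.0, limma-voom (limma 3.58.1), RLE scaling, no filter, a stricter filter (CPM of 1 in 3 samples), a replicate block and leaving out each sample were alternatives. The fit was tested on simulated data. The 16 lists (136 genes, all matched) and the 8 genes were chosen with earlier results of these data known. Named genes were the members, Ppp1r3c, the gene of lowest p and of highest level in the duct, tubule, Ret signalling, mesenchyme and sympathoadrenal lists, genes called in any list, and the 5 genes most like the members' profile. Results of some list genes are not reported here. Exon lengths and sequences came from GENCODE M21. The paper counted reads on NCBI RefSeq Curated gene models, whose exon lengths can differ, so levels per kilobase are approximate. Poisson intervals (95%) and floors of 3 counts cover counting error only.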

Additional observations from a re-analysis of the deposited data

How the results depend on the processing

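No member was called under any of the 13 alternatives, and 5 of the 7 tested members kept the sign of their log2 fold change under all of them. The exceptions were Ret, between -0.28 and 0.18 when 1 sample was left out (0.037 without the control numbered 3, 0.18 without cKO replicate 2), and Lrp2, between -0.025 and 0.13 (-0.025 with control replicate 1 left out, -0.0024 with control replicate 2 left out). Calb1 lay between 1.08 and 2.89, Pax2 between 0.55 and 0.98, Pax8 between 0.32 and 0.64, Gata3 between 0.31 and 0.70, and Lhx1 between -1.22 and -0.45. Adjusted p over all alternatives lay between 0.173 and 0.777 for Calb1 and between 0.133 and 0.8002 for Pax8.

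The number of genes called among all genes was 6 with edgeR, 111 with DESeq2, 3 with the replicate block, 2 to 8 with 1 sample left out (2 with either control replicate 1 or 3 left out, 3 with cKO replicate 3 left out) and 14 with DESeq2 without cKO replicate 3, which was chosen after seeing the data. In the other lists edgeR called 0 genes, DESeq2 called 3, and DESeq2 with cKO replicate 3 left out called 0. The log2 ratio of the summed members was 0.15, 0.51 without Lhx1, 0.0029 without Pax8, -0.015 without Calb1 and between -0.048 (cKO replicate 3) and 0.33 with 1 sample left out. The members' median was 0.51, and 0.27 with no filter. The causes were not tested. Same-numbered samples did not deviate together (r = -0.20, -0.27 and -0.13), so the numbers were not taken to pair them, and the block called 0 members. Depth limits Pax2 and Cdh16 most, at 234 and 20 counts in all.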

Other observations

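In cKO replicate 1, Msln, a mesothelial surface gene, held 332 counts (8.28 CPM) against 0.111 to 0.521 CPM in the other 5 samples, and Hoxa11, a posterior mesenchyme factor, was at 2.27 CPM against 0.317 to 0.554 CPM. Both were chosen after their values were seen. In that library Pax2 was at 1.40 CPM, Gata3 at 1.95 CPM and Calb1 at 2.77 CPM, each above all controls. Pax8, at 10.8 CPM, was also above them but was the lowest of the cKO samples. Lhx1 (11.9 CPM), Ret (2.02 CPM) and Lrp2 (8.35 CPM) lay within the range of the controls, and Cdh16 had 3 counts. The 4 mesothelial genes summed to 124 CPM there, against 112 to 130 CPM in the controls. The 10 nephrogenic mesenchyme genes, Hoxa11 among them, summed to 36.0 CPM in the same library, against 28.9 to 35.5 CPM in the controls.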
